A study of Mus musculus with 6 samples.

Results

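The genes of the mitochondrial protein import machinery were described in articular cartilage of 2-month-old and 18-month-old mice. They were chosen by gene symbol, as the genes named Tomm or Timm with a number, together with the import motor genes Pam16, Dnajc19, Grpel1, Grpel2 and Hspa9, the outer membrane assembly gene Samm50 and the metaxin genes Mtx1, Mtx2 and Mtx3. Pseudogenes were left out. Of the 33971 genes in the deposited table, 33 met this rule, and 32 of them passed the filter on low counts. The choice used no measured value. RNA sequencing was performed on 3 libraries per age, all from wild-type (WT) mice with no treatment named, and the question was how the cartilage transcriptome differs with age. The study's methods describe male mice and an aging model of osteoarthritis, and they name no further allele or agent for these libraries. Nothing in the labels says that libraries of one age came from separate animals, so p-values measure the spread between these libraries, which may in part be technical.

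Nearly all mitochondrial proteins are encoded in the nucleus, made in the cytosol and brought in through these complexes. The TOM complex of the outer membrane takes up precursors through receptors and a channel, and the SAM complex then inserts barrel-shaped proteins into the outer membrane. Small TIM chaperones guide hydrophobic precursors across the intermembrane space, the TIM22 complex inserts carrier proteins into the inner membrane, and the TIM23 complex with its heat shock protein motor draws precursors into the matrix.

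The libraries held between 48171507 and 59085179 counts. Between pairs of libraries of one age, the median chi-square over genes was 6.46 to 45.2 times that expected from counting alone. Chi-square is on the scale of squared deviations. All 16 chondrocyte markers were lower at 18 months (edgeR, adjusted p below 0.05), and together they took 8.11% to 9.32% of counts at 2 months and 0.245% to 1.05% at 18 months. None of them was at 0 in either age. The 14 neutrophil markers took 0.0013%, 0.38% and 0.00602% in 2-month replicates 1, 2 and 3 and 4.25% to 4.57% at 18 months. The 10 erythroid markers took 0.0248% to 0.666% and 2.72% to 3.59%, and the 12 proliferation markers 0.00317% to 0.0812% and 0.267% to 0.288%. By edgeR's test 0 of 14 neutrophil, 3 of 10 erythroid and 8 of 12 proliferation markers were called higher, against 12, 9 and 12 by DESeq2, and 3 of the neutrophil markers had an unadjusted p below 0.05 in edgeR. 2-month replicate 2 was the highest of its age for each of these 3 lists. Of the other lists, 8 of 12 tested skeletal muscle markers and 4 of 10 osteoblast markers were lower, and of 4 tested adipocyte markers 1 was higher and 1 lower. No call was made for the 10 B lymphocyte markers by edgeR or DESeq2, and 0 had an unadjusted p below 0.05 in edgeR. Their share was 0.00105%, 0.033% and 0.00148% in 2-month replicates 1, 2 and 3 and 0.0202% to 0.0233% at 18 months. Only 2-month replicate 2 was thus above the aged libraries. Xist, which is transcribed from the inactive X chromosome of females, was counted 88239 to 102417 times per library at 2 months and 11 to 30 times at 18 months. Age, this sex pattern and these cell types cannot be told apart here, as all but the B lymphocyte share separate the same libraries. Nor can fewer cells of a type be told apart from less RNA per cell in bulk tissue. Their part in the results on import genes was not tested.

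Expression of the import machinery was shifted upward in aged cartilage by a modest amount, with single members going either way. In the comparison of 18 with 2 months, 13 of the 32 tested members (40.6%) rose and 3 (9.38%) fell at an adjusted p below 0.05 by edgeR's quasi-likelihood test, beside 23.4% of all 20397 genes tested that rose and 27.9% that fell. Among the 16 members called, 81.2% were higher at 18 months, whereas rescaling to TPM, which makes every library add up to the same length-corrected total, gave 5 higher (15.6%) and 8 lower (25.0%), beside 18.2% and 35.3% of all genes in that fit. The members had a median log2 fold change of 0.26, against −0.02 for all genes, and 23 of the 32 were above 0. The members had a median absolute log2 fold change of 0.41, against 1.0 for all genes, whose values ran from −14.9 to 16.91. The 2 sets were not matched for expression level, so whether members moved less than genes of similar level was not tested. In this fit Timm8a1, Timm10 and Mtx3 passed both limits of the study, an adjusted p below 0.05 and a log2 fold change above 1 or below −1. Which members passed both limits changed with the fit. Tomm22 joined them with DESeq2 (1.05), median-of-ratios size factors (1.03), total counts alone (1.04) and limma on FPKM (1.05 and 1.02), Timm10 was below the limit with TPM (0.76), and Mtx3 was inside it with log2(FPKM + 1) (−0.91). Timm23 passed with log2(FPKM + 0.1) (1.01) and Timm21 with TPM (−1.06). Tomm22 also passed without 2-month replicate 1 (1.0) or 2 (1.01), and Timm23 without 2-month replicate 2 (1.12) or 18-month replicate 2 (1.01). Across all genes, 14.9% were higher and 21.3% lower past both limits. In counts scaled by TMM, libraries of the 2 ages did not overlap for 16 members that were higher at 18 months (50.0%, background 33.9%) and for 4 that were lower (12.5%, background 34.6%).

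**Figure D1:**
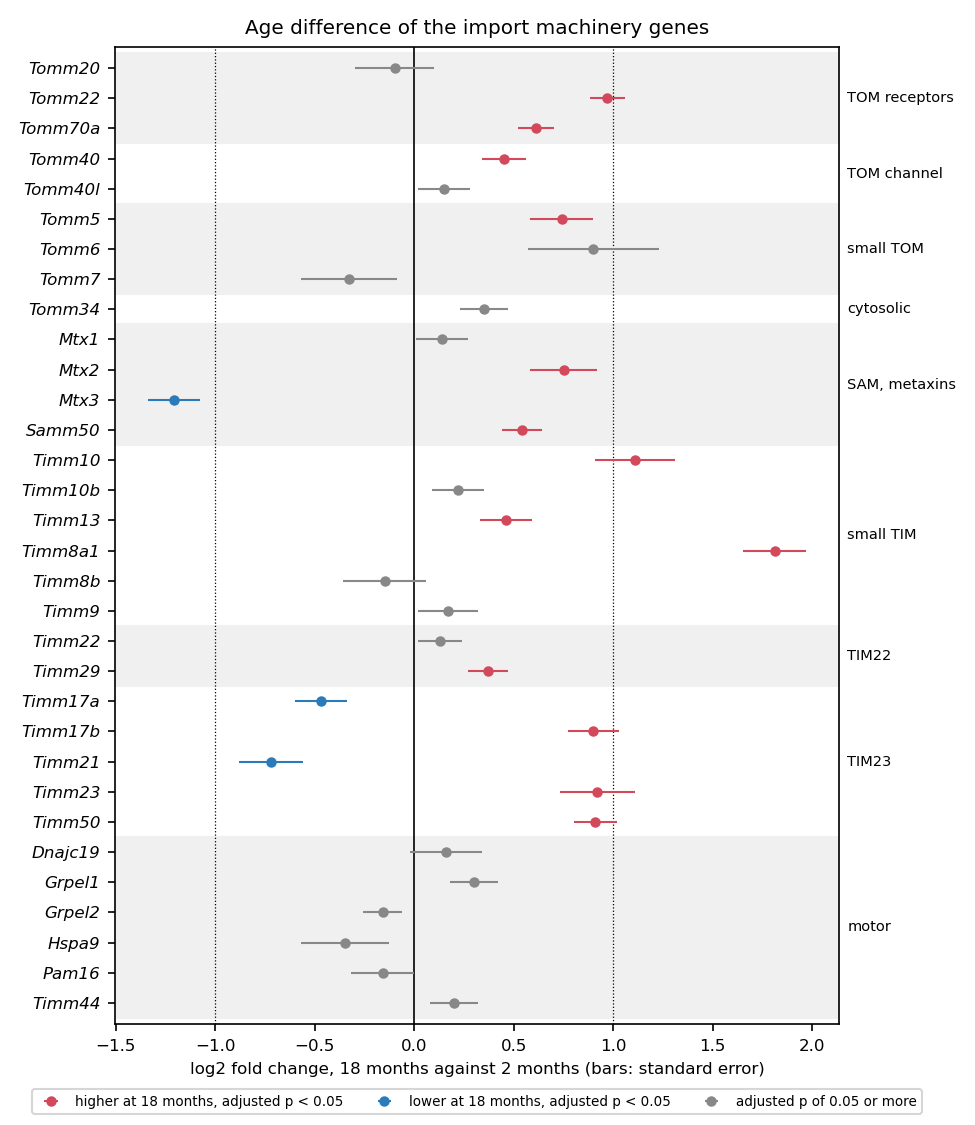
Log2 fold change of 18-month against 2-month cartilage (horizontal axis) for the 32 tested import genes, grouped by their place in the pathway, with bars of 1 standard error from edgeR and 3 libraries per age. Red points rose, blue points fell and grey points did not pass an adjusted p below 0.05, with dotted lines at log2 values of −1 and 1; Timm8a1 (1.81) lies farthest to the right, Mtx3 (−1.21) farthest to the left, and the 6 motor genes are all grey.

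Of the 3 receptors of the TOM complex, 2 rose and none fell. Tomm22, the central receptor that joins the other receptors to the channel, had 24.7, 26.3 and 22.6 FPKM (fragments scaled by transcript length and library total) in the young libraries, against 51.2, 51.5 and 49.8 FPKM in the aged ones. The 3 aged libraries were almost level and far above the 3 young ones. Its log2 fold change was 0.97 ± 0.09 (SE; 1.96-fold, edgeR adjusted p = 0.0013), just below the limit of 1. Tomm70a, the receptor for carrier precursors that arrive with chaperones, had 6.18, 6.36 and 5.62 FPKM at 2 months and 9.63, 9.92 and 9.72 FPKM at 18 months. The ages again did not overlap, and its log2 fold change was 0.61 ± 0.09 (SE, edgeR adjusted p = 0.0039). Tomm20, the receptor for cleavable presequences, had 22.2, 15.5 and 17.5 FPKM at 2 months and 15.8, 18.8 and 20.2 FPKM at 18 months, so the ages overlapped entirely. Its log2 fold change was −0.10 ± 0.20 (SE, edgeR adjusted p = 0.72). Summed over the 3 receptors, FPKM was 49.0 ± 3.72 at 2 months and 78.9 ± 1.91 at 18 months (SD, n = 3 libraries each). The FPKM total of all genes was also higher at 18 months (360503 to 387502 against 269587 to 293108), so these sums are not on one scale.

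Of the channel and the small subunits of TOM, Tomm40 and Tomm5 rose and the other 3 did not pass the test. Tomm40, which encodes the channel, had 4.86, 4.70 and 4.45 FPKM at 2 months and 7.40, 6.71 and 6.09 FPKM at 18 months, with a log2 fold change of 0.45 ± 0.11 (SE, edgeR adjusted p = 0.021). Its call was lost without 2-month replicate 3 (adjusted p = 0.077), 18-month replicate 1 (0.052) or 18-month replicate 2 (0.072). Tomm40l, a second form of the channel gene, stayed within the spread of the young libraries in 2 of the 3 aged ones, with a log2 fold change of 0.15 ± 0.13 (SE, edgeR adjusted p = 0.38). Tomm5, a small subunit that helps assemble the complex, had 21.3, 20.2 and 14.8 FPKM at 2 months and 33.3, 32.2 and 33.5 FPKM at 18 months. All 3 aged libraries were above all young ones, with a log2 fold change of 0.74 ± 0.16 (SE, edgeR adjusted p = 0.011). Tomm7, another small subunit, had 42.3, 24.7 and 36.7 FPKM at 2 months and 29.7, 28.2 and 29.9 FPKM at 18 months. The young libraries lay on both sides of the aged ones, and the log2 fold change was −0.33 ± 0.24 (SE, edgeR adjusted p = 0.28). Without 2-month replicate 2, the lowest young library, it was −0.53 (adjusted p = 0.0055).

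Tomm6, a further small subunit gene, overlaps another gene on its own strand. Its FPKM was 10.5, 9.25 and 14.8 at 2 months and 33.2, 16.6 and 19.3 at 18 months. The ages did not overlap, but 18-month replicate 1 stood well above the other aged libraries, and the log2 fold change of 0.90 ± 0.33 (SE) missed the threshold (edgeR adjusted p = 0.063). It passed with DESeq2 (0.98, adjusted p = 0.0039) and with limma on log2(FPKM + 0.1) (0.96, adjusted p = 0.038) and log2(FPKM + 1) (0.91, adjusted p = 0.035). The overlapping gene is Gm21981, a transcript of the nonsense-mediated decay class, and its counts were 1352, 1142 and 844 at 2 months and 285, 1342 and 1332 at 18 months. The library with the most Tomm6 counts, 18-month replicate 1 with 2528, was the one with the fewest of Gm21981. Summed over both genes, a sum chosen after the values were seen, the CPM (counts scaled to the library total) were 41.5, 34.0 and 37.1 at 2 months and 47.6, 45.8 and 48.9 at 18 months (37.5 ± 3.77 and 47.4 ± 1.55, SD, n = 3). The ages did not overlap in the sum either. How reads in the overlap were assigned was not tested, and the value of Tomm6 is uncertain for that reason. Tomm34, a cytosolic cochaperone that is named after TOM but is not part of it, had 7.98, 7.86 and 8.34 FPKM at 2 months and 12.4, 10.6 and 9.69 FPKM at 18 months (log2 fold change 0.35 ± 0.12, SE, edgeR adjusted p = 0.059). The ages did not overlap, and it passed under 6 of the 10 alternatives with all libraries. There its log2 fold changes were 0.36 to 0.43, with adjusted p-values from 0.0052 with DESeq2 to 0.047 with scaling without the 100 most abundant genes. Tomm34 overlaps Stk4 on the opposite strand, which held 482% as many counts. Stk4 had 1746, 4847 and 1802 counts at 2 months and 15556, 13312 and 13753 at 18 months. Its part in the values of Tomm34 was not tested.

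The genes of outer membrane assembly split in direction. Samm50, the core of the SAM complex, had 9.12, 8.53 and 7.85 FPKM at 2 months and 13.6, 12.7 and 12.9 FPKM at 18 months, and rose by a log2 fold change of 0.54 ± 0.10 (SE, edgeR adjusted p = 0.0082). Mtx3, a metaxin paralogue, went the other way, with 6.19, 5.96 and 6.29 FPKM at 2 months and 2.56, 3.06 and 2.77 FPKM at 18 months. Both sets of libraries were tight and well apart. Its log2 fold change of −1.21 ± 0.13 (SE; 0.431-fold, edgeR adjusted p = 0.0017) was the largest fall among the tested members. Mtx2, a metaxin that partners Mtx1 on the outer membrane, had 3.37, 5.10 and 3.25 FPKM at 2 months and 6.53, 7.01 and 7.09 FPKM at 18 months. It rose by 0.75 ± 0.17 (log2, SE, edgeR adjusted p = 0.015), with 2-month replicate 2 lying nearest to the aged libraries. The call was lost without 2-month replicate 3 (adjusted p = 0.056), 18-month replicate 2 (0.056) or 18-month replicate 3 (0.058). Mtx1 had 4.44, 5.14 and 4.23 FPKM at 2 months and 6.05, 4.67 and 5.35 FPKM at 18 months, and the ages overlapped (log2 fold change 0.14 ± 0.13, SE, edgeR adjusted p = 0.40).

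Of the 6 tested small TIM chaperones, 3 rose and none fell, and both members past the upper limit belonged to this group. Timm8a1, whose human counterpart is mutated in deafness-dystonia syndrome, had 3.60, 3.51 and 4.10 FPKM at 2 months and 13.3, 15.2 and 13.4 FPKM at 18 months. The lowest aged library was more than 3 times the highest young one. Its log2 fold change of 1.81 ± 0.16 (SE; 3.52-fold, edgeR adjusted p = 0.0013) was the largest rise among the tested members. Timm8a1 lies on the X chromosome, where 21.0% of the 649 genes tested were higher at 18 months and 32.2% lower, around a median log2 value of −0.14. Timm10, which forms a hexamer with Timm9, had 3.63, 5.31 and 3.86 FPKM at 2 months and 9.92, 9.37 and 9.81 FPKM at 18 months. The aged libraries were close together and above every young one, with a log2 fold change of 1.11 ± 0.20 (SE; 2.16-fold, edgeR adjusted p = 0.0064).

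Timm9, the hexamer partner of Timm10, had 2.65, 2.50 and 2.11 FPKM at 2 months and 3.06, 2.84 and 2.74 FPKM at 18 months. Those aged values were slightly higher, but after scaling of the counts the ages overlapped, and the log2 fold change was 0.17 ± 0.15 (SE, edgeR adjusted p = 0.36). Timm13, which works with the Timm8 proteins, had 12.2, 16.0 and 14.9 FPKM at 2 months and 22.7, 19.3 and 20.8 FPKM at 18 months. It rose by 0.46 ± 0.13 (log2, SE, edgeR adjusted p = 0.026). This call lay close to the threshold and was lost in 5 of the 6 fits that left out 1 library, with adjusted p-values of 0.063 and 0.055 without 2-month replicates 1 and 3, and 0.067, 0.056 and 0.083 without 18-month replicates 1, 2 and 3. Timm8b, the other partner of Timm13 and by far the most abundant gene of the group, had 54.0, 37.7 and 39.1 FPKM at 2 months and 47.8, 42.6 and 34.8 FPKM at 18 months. The ages overlapped, with a log2 fold change of −0.15 ± 0.21 (SE, edgeR adjusted p = 0.58). Timm10b, a small TIM that docks to TIM22, had a log2 fold change of 0.22 ± 0.13 (SE, edgeR adjusted p = 0.22), and it shares its strand with the overlapping gene Gm45799, which held 10.9% as many counts. Timm8a2, a copy of Timm8a1, had 8, 0 and 3 counts at 2 months and 0, 0 and 0 at 18 months. It failed the filter and was not tested, and a count of 0 allows up to 3 counts in a library.

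Among the members, the TIM22 carrier translocase was represented by its channel gene Timm22 and by Timm29, a subunit that stabilises the complex. The symbol rule leaves out Agk, a further TIM22 subunit from the list of other import genes below. Agk was lower without overlap between the ages but did not pass (log2 fold change −0.4 ± 0.14, SE, edgeR adjusted p = 0.054). Timm29 had 9.59, 12.4 and 10.3 FPKM at 2 months and 15.0, 14.3 and 14.6 FPKM at 18 months, and rose by 0.37 ± 0.10 (log2, SE, edgeR adjusted p = 0.024). This small rise was lost in 5 of the 6 fits that left out 1 library, with adjusted p-values of 0.073 and 0.09 without 2-month replicates 1 and 3, and 0.054, 0.076 and 0.086 without 18-month replicates 1, 2 and 3. Timm22 had 5.26, 5.56 and 4.90 FPKM at 2 months and 6.46, 6.15 and 5.61 FPKM at 18 months. Its ages were apart on the FPKM scale by a narrow gap but overlapped in scaled counts, and the log2 fold change was 0.13 ± 0.11 (SE, edgeR adjusted p = 0.33).

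All 5 members grouped under the TIM23 translocase passed the test, 3 upward and 2 downward. The symbol rule leaves out Romo1, a further TIM23 subunit from the list of other import genes below. Romo1 did not pass (log2 fold change −0.13 ± 0.17, SE, edgeR adjusted p = 0.56). Timm23, the channel of the presequence translocase, had 8.83, 11.9 and 6.96 FPKM at 2 months and 19.2, 16.1 and 19.8 FPKM at 18 months. The young libraries were spread out, and all lay below the aged ones, with a log2 fold change of 0.92 ± 0.19 (SE; 1.89-fold, edgeR adjusted p = 0.010). Timm50, the receptor that hands presequences to the channel, had 5.07, 6.10 and 5.86 FPKM at 2 months and 11.7, 11.7 and 10.4 FPKM at 18 months, a rise of 0.91 ± 0.11 (log2, SE, edgeR adjusted p = 0.0023). The 2 forms of the channel partner Timm17 moved apart. Timm17b, which is X-linked, had 5.28, 5.45 and 4.60 FPKM at 2 months and 9.27, 10.5 and 10.5 FPKM at 18 months, a rise of 0.90 ± 0.13 (log2, SE, edgeR adjusted p = 0.0032). Timm17a had 4.08, 3.60 and 3.90 FPKM at 2 months and 3.07, 3.08 and 2.71 FPKM at 18 months, with a log2 fold change of −0.47 ± 0.13 (SE, edgeR adjusted p = 0.026).

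Each aged library was thus above each young one for Timm17b and below each young one for Timm17a. The call of Timm17a was lost in 5 of the 6 fits that left out 1 library, with adjusted p-values of 0.075 and 0.089 without 2-month replicates 1 and 3, and 0.06, 0.066 and 0.099 without 18-month replicates 1, 2 and 3. Timm21, which links TIM23 to the TOM complex and to respiratory chain assembly, had 9.78, 7.58 and 8.15 FPKM at 2 months and 6.02, 5.65 and 4.79 FPKM at 18 months. It fell without overlap between the ages, with a log2 fold change of −0.72 ± 0.16 (SE, edgeR adjusted p = 0.015). Its call did not hold without 18-month replicate 2 (adjusted p = 0.050) or 18-month replicate 3 (0.061). Summed over the 5 genes, FPKM was 32.4 ± 2.65 at 2 months and 48.2 ± 1.17 at 18 months (SD, n = 3). As the FPKM total of all genes was also higher at 18 months, these sums are not on one scale.

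None of the 6 import motor genes passed edgeR's test with TMM scaling and all libraries in either direction, and 0 of them had an unadjusted p below 0.05. Grpel1 passed with DESeq2 (log2 fold change 0.38, adjusted p = 0.014) and in edgeR with total counts alone (0.38, adjusted p = 0.037). It also passed with limma on log2(FPKM + 0.1) (0.38, adjusted p = 0.033) and log2(FPKM + 1) (0.35, adjusted p = 0.035). With TPM, in contrast, Hspa9 (−0.67), Grpel2 (−0.52) and Pam16 (−0.52) were lower. Hspa9, the mitochondrial Hsp70 that pulls precursors inward and the most abundant import gene at 2 months, had 60.5, 39.3 and 42.8 FPKM at 2 months and 45.0, 37.0 and 37.3 FPKM at 18 months. The ages overlapped, and 2-month replicate 1 stood above the other 5 libraries (log2 fold change −0.35 ± 0.22, SE, edgeR adjusted p = 0.22). Grpel1, the nucleotide exchange factor of Hspa9, had 9.98, 8.73 and 7.93 FPKM at 2 months and 11.6, 11.9 and 11.2 FPKM at 18 months. The aged libraries were all higher, but the log2 fold change was 0.30 ± 0.12 (SE, edgeR adjusted p = 0.090), and without 2-month replicate 1 it was 0.42 (adjusted p = 0.034). Its paralogue Grpel2 had 3.29, 3.67 and 3.53 FPKM at 2 months and 3.18, 3.35 and 3.35 FPKM at 18 months (log2 fold change −0.16 ± 0.10, SE, edgeR adjusted p = 0.22), and its aged libraries were below the young ones in scaled counts but not in FPKM. Timm44, which tethers Hspa9 to the channel, Pam16 and Dnajc19, the pair that regulates its ATPase cycle, had log2 fold changes of 0.20, −0.16 and 0.16, and in scaled counts the ages overlapped for each of them. Dnajc19 has a processed copy, Dnajc19-ps, which held 37 to 125 counts per library beside 669 to 1139 of Dnajc19. Summed over the 6 motor genes, FPKM was 76.9 ± 13.0 at 2 months and 74.1 ± 6.10 at 18 months (SD, n = 3). These near-level sums are not on one scale either, since the FPKM total of all genes was higher at 18 months. A difference between the motor and the other groups was not tested.

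**Figure D2:**
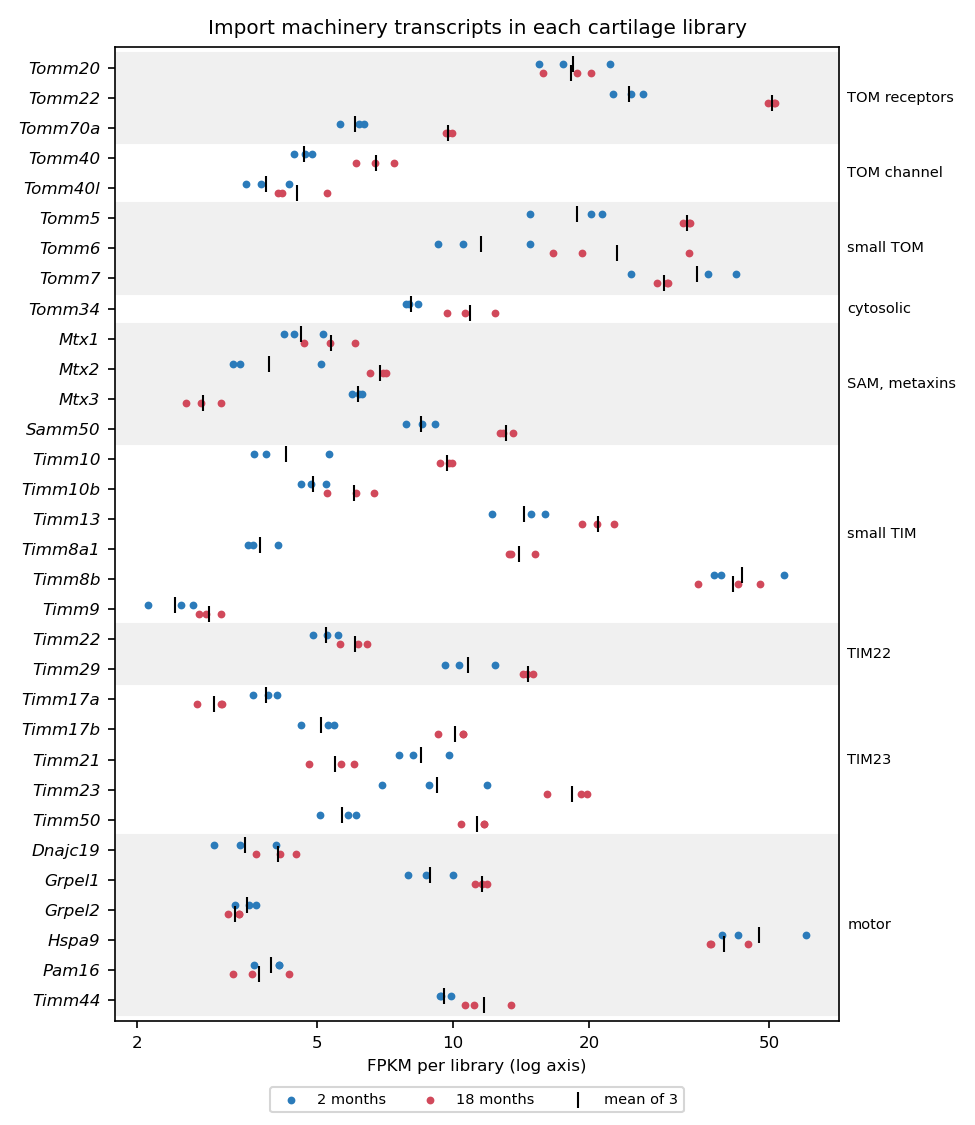
FPKM of the 32 tested import genes (horizontal log axis) in each of 3 libraries from 2-month (blue) and 3 from 18-month (red) cartilage, with a black tick at the mean of each age and gene groups shaded in turn. The aged points of Tomm22 sit at 49.8 to 51.5 FPKM, to the right of all young points, while those of Mtx3 sit at 2.56 to 3.06 FPKM, to the left of all young points.

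The order of abundance within the machinery changed at several places. FPKM corrects for transcript length and so allows levels of different genes to be set side by side. At 2 months the highest mean levels were those of Hspa9 (47.5 ± 11.4 FPKM, SD, n = 3), Timm8b (43.6 ± 9.07 FPKM) and Tomm7 (34.6 ± 8.98 FPKM), which did not differ from each other beyond their spread. Tomm22 followed with 24.6 ± 1.84 FPKM. At 18 months Tomm22 was the highest with 50.9 ± 0.909 FPKM, ahead of Timm8b (41.7 ± 6.53 FPKM) and Hspa9 (39.7 ± 4.53 FPKM), whose ranges overlapped. Among the 33 members, Timm8a1 went from rank 29 to rank 11, whereas Mtx3 went from rank 16 to rank 32 and Timm21 from rank 13 to rank 24. The FPKM of all members together was 352 ± 31.1 at 2 months and 453 ± 25.5 at 18 months (SD, n = 3). The FPKM total of all genes was also higher at 18 months, at 360503 to 387502 against 269587 to 293108, so FPKM sums of the 2 ages are not on one scale.

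The ratio of related members within a library does not depend on how libraries are scaled to each other. For 8 pairs with enough counts, the log2 ratio of counts separated the ages without overlap in each pair, and each pair gave p = 0.1 in an exact two-sided permutation test, the smallest p that 3 against 3 libraries allow (0.1 after Benjamini-Hochberg adjustment over the 8 pairs). Among single genes 33.9% were higher and 34.6% lower without overlap between the ages. The share over other gene pairs was not computed, so the 8 pairs are given as a description. The ratio of Timm17a to Timm17b had log2 values of 1.25, 1.02 and 1.38 at 2 months and 0.03, −0.14 and −0.32 at 18 months. Per transcript length, as FPKM ratios, these were 0.774, 0.66 and 0.848 at 2 months and 0.331, 0.294 and 0.258 at 18 months, so Timm17b was the higher form in each library and the more so at 18 months. The ratio of Timm8a1 to Timm8b had log2 values of −2.45, −1.97 and −1.79 at 2 months and −0.39, −0.04 and 0.08 at 18 months, a change of 1.95. The ratio of Mtx1 to Mtx3 went from −1.49 ± 0.19 to −0.14 ± 0.32, and that of Timm10 to Timm10b from −2.35 ± 0.33 to −1.44 ± 0.13 (SD, n = 3).

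Smaller changes were seen for the other pairs. The log2 ratio of Timm23 to Timm22, the channels of the presequence and carrier routes, changed by 0.80, and that of Mtx1 to Mtx2 by −0.63. For Grpel1 to Grpel2 it changed by 0.47, and for Tomm40 to Tomm40l by 0.30. Each of the 8 changes kept its sign with FPKM in place of counts, with a larger pseudocount and with each library left out.

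**Figure D3:**
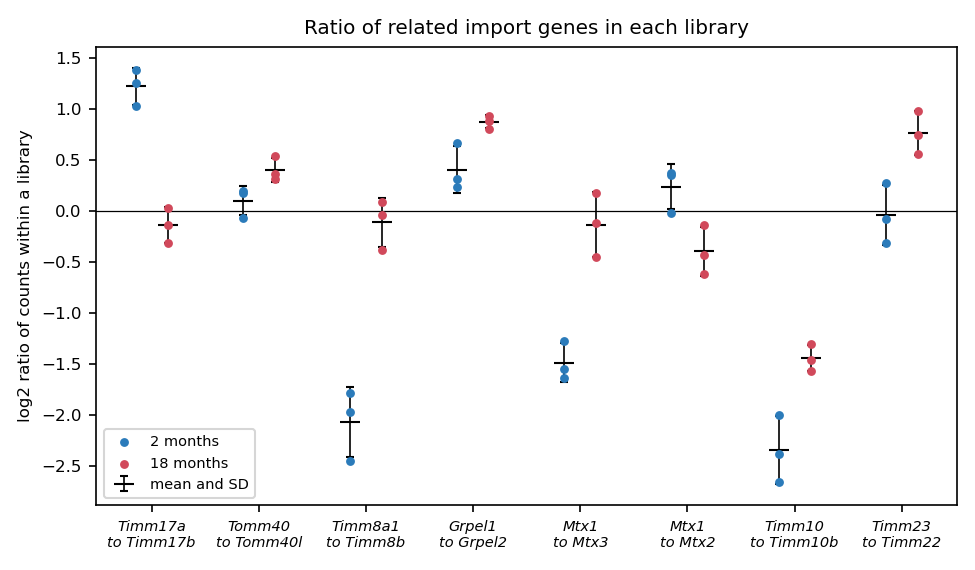
Log2 ratio of the counts of the first to the second gene of 8 pairs (vertical axis) within each of 3 libraries from 2-month (blue) and 3 from 18-month (red) cartilage, with the mean and SD in black. Timm17a to Timm17b falls from 1.22 ± 0.18 to −0.14 ± 0.18, and Timm8a1 to Timm8b rises from −2.07 ± 0.34 to −0.12 ± 0.25.

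The libraries of one age could also be compared over the whole machinery. The median deviation of the members from their mean at 2 months was 0.09, −0.06 and −0.05 (log2 CPM) in the young libraries and 0.35, 0.33 and 0.24 in the aged ones. For all genes tested the aged libraries were at 0.02, 0.04 and 0.05. 2-month replicate 2, which held the most neutrophil, erythroid and proliferation counts of its age, was the highest young library for 4 of the 13 members that rose and the lowest for 3 of them. For each of the 3 members that fell, Mtx3, Timm21 and Timm17a, it was the lowest young library and so the one nearest to the aged level, and it was also the lowest for 9 of the 16 members that did not pass. Of the 13 that rose, 2-month replicate 1 was the highest for 6 and the lowest for 4, and replicate 3 for 3 and 6. The shares over all genes were not computed, so these counts are a description. Whether they are tied to the cell types was not tested. Without 2-month replicate 2, 13 members (40.6%) were higher and 4 (12.5%) lower, beside 32.0% and 28.3% of all genes in that fit. All 16 members called with 6 libraries were called again there.

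Of 39 other genes of mitochondrial import, maturation, folding and cristae organisation, 10 (25.6%) rose and 4 (10.3%) fell by edgeR's test, and the median log2 fold change was 0.24. Beside this stands the background of 23.4% higher and 27.9% lower. With DESeq2, 22 of the 39 (56.4%) were higher and 5 (12.8%) lower, so the share of this list that rose depends on the test used. The DESeq2 shares of all genes were 19.8% and 19.9%, taken over 33971 genes without the filter on low counts. They are not on one basis with the edgeR background, which covers the 20397 genes past that filter. Chchd4, the oxidoreductase that traps small TIM proteins in the intermembrane space, had 1.0, 1.53 and 1.19 FPKM at 2 months and 3.56, 3.18 and 3.22 FPKM at 18 months. Every aged library was at least 2 times the highest young one, and the log2 fold change was 1.34 ± 0.17 (SE, edgeR adjusted p = 0.0024). Htra2, a serine protease of the intermembrane space, rose from 11.5 ± 1.10 to 25.9 ± 2.03 FPKM (SD, n = 3), with a log2 fold change of 1.10 ± 0.09 (SE, edgeR adjusted p = 0.0012). These 2 genes of the list were past both limits in this fit, and 1 to 4 genes were in the other fits.

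Among the 3 most abundant genes of that list, all cytosolic chaperones, Hsp90aa1 rose (log2 fold change 0.84 ± 0.22, SE, edgeR adjusted p = 0.022). Its call was lost without 2-month replicate 1 (adjusted p = 0.058) or 2-month replicate 3 (0.071), and with limma on TPM (0.45, adjusted p = 0.16). In 18-month replicate 1 Hsp90aa1 had 167 FPKM, against 104 and 99.1 FPKM in 18-month replicates 2 and 3. Without 18-month replicate 1 its log2 fold change was 0.59, and it still passed. Hspa8 (0.60 ± 0.26) and Hsp90ab1 (0.22 ± 0.17) did not pass, with adjusted p-values of 0.10 and 0.32. Without 18-month replicate 1 their log2 fold changes were 0.30 and 0.09, and with DESeq2 Hspa8 passed (0.67, adjusted p = 0.028). The 4 that fell, named after their values were seen, were Immp1l, which belongs to an inner membrane peptidase (log2 fold change −0.74), Xpnpep3, an aminopeptidase that trims imported proteins (−0.69), Yme1l1, the inner membrane protease that degrades unassembled import subunits (−0.59), and Clpx, the unfoldase of a matrix protease (−0.54). None of the 4 passed the limit of −1.

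The direction of the machinery as a whole depended on the scale used. The median log2 fold change of the members lay above that of all genes tested by 0.15 to 0.36 in each of the 17 fits. With counts or FPKM the median of the members was between 0.15 and 0.34. With TPM the median of all genes moved to −0.33 and that of the members to −0.09, so that relative to all genes the members were still higher by 0.24. The rises of Tomm70a, Tomm40, Tomm5, Mtx2, Samm50, Timm13, Timm29 and Timm23 did not pass with TPM, where their log2 fold changes were 0.02 to 0.58, and Tomm20 (−0.44) and Tomm7 (−0.64) were then called lower along with the 3 motor genes named above. Mtx3 fell, and Timm8a1, Timm10, Tomm22, Timm50 and Timm17b rose, in each of these fits, including those with 1 library left out. Mtx3 ranged from −1.56 to −0.91 and Timm8a1 from 1.46 to 1.91 over them, on the log2 scale.

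**Figure D4:**
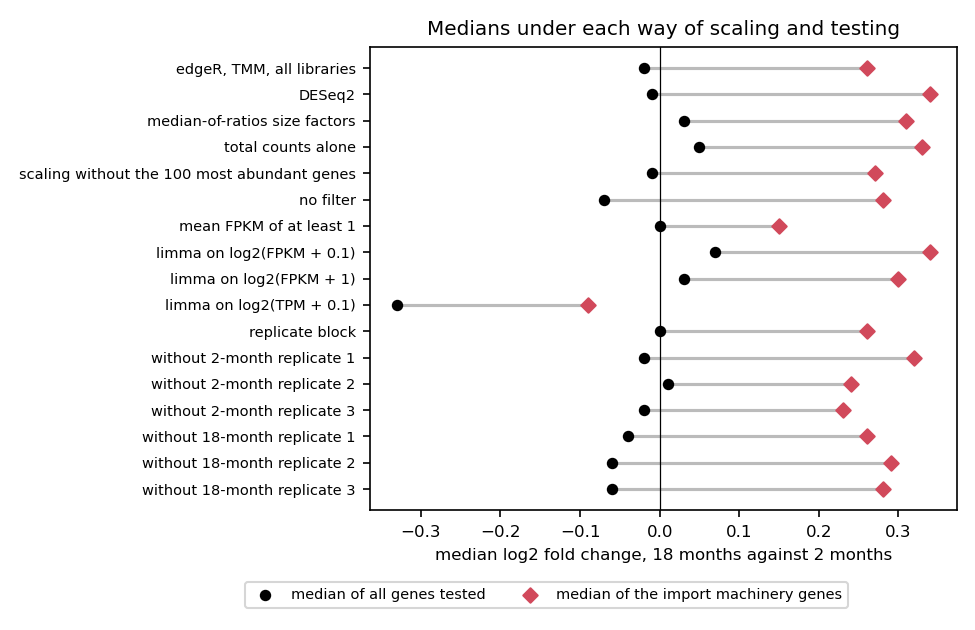
Median log2 fold change of 18-month against 2-month cartilage (horizontal axis) for all genes tested (black circles) and for the 32 import genes (red diamonds) in 17 fits that differ in scaling, filter, test or the library left out. The red diamond lies to the right of the black circle in each fit, at 0.26 against −0.02 in the fit reported here, and both lie below 0 with TPM (−0.09 against −0.33).

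Promoter sequence of the members was searched for short motifs, which were chosen with earlier results of these data known. RefSeq windows on build GRCm38.p6, running from 250 bases before to 50 bases after a gene's start, were found for 28 of the 33 members. The ETS core CCGGAAGT was present on either strand in the windows of 8 members (28.6%), compared with 4.31% of all 27025 genes with a window and 9.09% of the 9857 with a mean of at least 1 FPKM. It was found in 5 of the 13 members that rose, in 1 of the 2 that fell and have a window, in 1 of the 12 tested members with a window that did not pass, and in Timm8a2. The YY1 core AAGATGGCG was in 10.7% of the members and 3.62% of those expressed genes, the NRF1 core GCGCATGC in 7.14% and 5.79%, and the SP1 core GGGCGG in 60.7% and 68.1%. Matches of letters are a description and no measure of binding.

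The ETS matches of the tested members are shown because the share of members differed most from that of expressed genes for this motif. Each line gives 30 bases of GRCm38.p6 read on the gene's strand, with the match in capitals, as CCGGAAGT or as its reverse complement ACTTCCGG.
Tomm70a (chr16:57121623-57121652, plus strand, rose): gccttctgaccCCGGAAGTggttctcccct
Mtx2 (chr2:74825776-74825805, plus strand, rose): gggcggagcagCCGGAAGTgccggcgcgcg
Mtx2 (chr2:74825807-74825836, plus strand, rose): tgtcagcgacgCCGGAAGTgcttggtcggc
Timm10 (chr2:84827026-84827055, plus strand, rose): tagacttccttCCGGAAGTgacccacgtgc
Timm29 (chr9:21592498-21592527, plus strand, rose): gagctctgaccACTTCCGGgctccactcac
Timm23 (chr14:32201921-32201950, minus strand, rose): tcgcgcttcccACTTCCGGgccgcacacag
Mtx3 (chr13:92844744-92844773, plus strand, fell): gcggtacgagtACTTCCGGgtgacagaggt
Timm10b (chr7:105640465-105640494, plus strand, not past the test): gagtagtgagagtttACTTCCGGggcgact

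The match began 80 bases before the RefSeq start in Tomm70a, 48 before it in Timm23 and 13 before it in Mtx3. In Timm10 it began 16 bases after the start, and in Timm29 213 bases before it. Mtx2 held a match on either side of its start. The same letters stood near the start of the gene that fell most and of genes that rose, and a link to the changes was not tested.

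The bases just upstream of the 3 members past both limits are shown for reference, from RefSeq on GRCm38.p6 and up to the first base of the annotated gene. Capitals mark SP1 cores (GGGCGG or CCGCCC), and no other searched motif lay whole in these stretches. The Mtx3 stretch ends within the ETS match printed above. Mtx3 is at chr13:92844760-92858230 on the plus strand, Timm10 at chr2:84826997-84830213 on the plus strand and Timm8a1 at chrX:134537256-134541865 on the minus strand.
Mtx3 (chr13:92844518-92844759, plus strand): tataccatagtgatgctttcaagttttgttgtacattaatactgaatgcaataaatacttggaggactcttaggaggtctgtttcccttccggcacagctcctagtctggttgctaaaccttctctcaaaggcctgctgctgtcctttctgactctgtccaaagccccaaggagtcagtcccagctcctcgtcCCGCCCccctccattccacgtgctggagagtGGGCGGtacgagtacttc
Timm10 (chr2:84826771-84826996, plus strand): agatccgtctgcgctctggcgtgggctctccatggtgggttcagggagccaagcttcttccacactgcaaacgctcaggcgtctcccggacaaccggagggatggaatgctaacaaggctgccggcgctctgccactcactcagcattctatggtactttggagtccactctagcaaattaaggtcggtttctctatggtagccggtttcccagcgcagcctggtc
Timm8a1 (chrX:134541866-134541920, minus strand): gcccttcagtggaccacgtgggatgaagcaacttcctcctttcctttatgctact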

How the data were processed

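Poly(A)-selected, strand-specific libraries of mouse articular cartilage had been sequenced from both ends with unique molecular identifiers in the adapters. The authors deposited 2 values for each gene in each library, a raw whole-number count and an FPKM, in which the count is divided by transcript length and by library depth. The submitters' processing notes name cutadapt 1.9, HISAT2 2.0.4, UMI-tools, StringTie 1.3.4d, DESeq2 and edgeR, but the step that made the counts and the genome build are not given in the sources used here. The deposited coordinates of 29 of the 33 members were identical to those in GENCODE M21, the annotation of GRCm38 used here for comparison.

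The counts went into edgeR 4.0.16 under R 4.3.3 (filterByExpr, TMM, quasi-likelihood), with no block for replicate number. Benjamini-Hochberg adjustment ran over 20397 genes, and each standard error is the size of the log2 fold change over the root of its F statistic. Members are the 33 genes met by the symbol rule, and all of them are named. Of the other import genes, those past both limits and the 3 with the highest mean FPKM are named. The 4 that fell, and Romo1 and Agk, were named after their values were seen. The members, lists, pairs and motifs were chosen with earlier results of these data known. Pair ratios used counts + 0.5, and 2 of the 10 pairs listed were not tested, since Tomm20l is not analysed here and Timm8a2 had too few counts. The alternatives were DESeq2 1.42.0, median-of-ratios size factors, total counts alone, scaling without the 100 most abundant genes, omitting the filter, a minimum mean FPKM of 1, limma 3.58.1 with trend on log2(FPKM + 0.1), log2(FPKM + 1) and log2(TPM + 0.1), a replicate block, and leaving out each library in turn.

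Several members overlap another gene. Tomm6 and Timm10b do so on the same strand, with genes that held 86.1% and 10.9% as many counts. Same-strand genes also overlap Tomm20, Mtx2, Samm50, Timm23 and Hspa9, but each held at most 0.62% as many. On the opposite strand the overlapping gene held 538% as many counts for Dnajc19 (Fxr1), 482% for Tomm34 (Stk4) and 254% for Timm10b (Arfip2). The share was 124% for Tomm6 (Usp49), 115% for Timm8b (Nkapd1) and 81.6% for Grpel1 (Tada2b). It was 66.8% for Timm29 (Yipf2), 46.8% for Mtx1 (Gm43737) and 13.2% for Tomm70a (Nit2). Whether the counting used strand is not given in the sources used here, so the values of these members are uncertain to that extent. Percentages of counts cover counting error only.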

Additional observations from a re-analysis of the deposited data

How the results depend on the processing

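Of the 16 members called with all libraries, 6 kept their call under every alternative and with every library left out, 7 under every alternative with all libraries, and 10 with every library left out. With rescaling to TPM, 5 members (15.6%) were higher and 8 (25.0%) lower, with a median log2 fold change of −0.09. Of the other import genes 3 (7.69%) were higher and 8 (20.5%) lower, with a median of −0.12. Beside these, 18.2% of all genes were higher and 35.3% lower in that fit. With TPM the sign turned for Tomm40l (−0.21), Tomm34 (−0.01), Mtx1 (−0.22), Timm10b (−0.14), Timm9 (−0.18), Timm22 (−0.22), Dnajc19 (−0.19), Grpel1 (−0.05), Timm44 (−0.15) and Hsp90ab1 (−0.14), none of which had passed the test. Tomm20 turned to 0.09 without 2-month replicate 1 and to 0.02 without 18-month replicate 1, and Timm8b to 0.06 without 2-month replicate 1. With 1 library left out, Tomm20 ranged from −0.21 to 0.09 and Timm8b from −0.26 to 0.06. The median of the members was 0.34 with DESeq2, 0.34 with log2(FPKM + 0.1) and 0.15 with a mean FPKM of at least 1. That of the other import genes was 0.32 with DESeq2, 0.29 with median-of-ratios size factors, 0.31 with total counts alone, 0.15 with a mean FPKM of at least 1, 0.31 with log2(FPKM + 0.1) and 0.29 with log2(FPKM + 1). DESeq2 called 22 other import genes higher (56.4%, beside 19.8% of all 33971 genes, unfiltered). With edgeR there were 10 (25.6%, beside 23.4% of the 20397 genes past the filter). The 2 backgrounds are thus not on one basis. The cause of the difference in calls was not tested.

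With 1 library left out, 9 to 13 members (28.1% to 40.6%) were higher and 1 to 4 (3.12% to 12.5%) lower, with medians of 0.23 to 0.32. Of the other import genes 5 to 14 (12.8% to 35.9%) were higher and 1 to 6 (2.56% to 15.4%) lower, with medians of 0.17 to 0.29. Beside these, 14.2% to 32.0% of all genes were higher and 19.7% to 28.3% lower in those fits. Deviations of libraries with the same number from their age means correlated at 0.0225, 0.0354 and −0.0105 over genes. With 3 libraries per age this check cannot decide whether the numbers pair the libraries, and the labels do not say so. With a replicate block 10 members (31.2%) were higher and 2 (6.25%) lower, with a median of 0.26. Of the other import genes 7 (17.9%) were higher and 3 (7.69%) lower, beside 17.4% and 21.1% of all genes in that fit. The calls of Tomm40, Timm13, Timm29, Timm17a and Hsp90aa1 were lost with the block (edgeR adjusted p = 0.056, 0.079, 0.074, 0.078 and 0.052). Timm17a also missed the threshold without the filter (0.052) and with limma on FPKM (0.054 and 0.057), and Timm29 without the filter (0.058). With 3 libraries per age, differences near the threshold, such as those of Timm13, Timm29 and Timm17a, are at the limit of what these data resolve.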
